A study of Homo sapiens with 12 samples.

Results

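Expression of 8 annexin genes, ANXA1, ANXA2, ANXA3, ANXA4, ANXA5, ANXA6, ANXA7 and ANXA11, was followed in A549 cells, a human lung adenocarcinoma line, after depletion of the transcriptional coactivators YAP and TAZ. The genes were found by symbol among 60617 gene identifiers, and all 8 were among the 21581 genes that passed a filter on low counts. The 12 libraries formed 3 groups of 4 that the series calls biological replicates, all made 24 hours after transfection: a control siRNA (siCo) and either of 2 combinations of siRNAs, siYAP/TAZ#1 and siYAP/TAZ#2. Each combination is directed at YAP (gene YAP1) and TAZ (gene WWTR1) at once, so the data hold no group in which a single coactivator was depleted. The labels give the control only as NTC and name no siRNA sequence.

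Annexins are cytosolic proteins that bind acidic phospholipids, chiefly phosphatidylserine, when calcium rises, and so move to the plasma membrane, endosomes or damaged membrane. Each has a conserved core that carries the calcium and membrane binding and an N-terminal tail that differs between members and binds partners, among them small calcium-binding proteins of the S100 family. In epithelia they are known for membrane repair, vesicle traffic, limiting of phospholipase A2 activity and, for annexin A2, assembly of plasminogen at the cell surface. YAP and TAZ are held back by the Hippo kinases and act in the nucleus mainly through TEAD transcription factors, often at sites that also bind AP-1.

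Library totals were 29.6 to 38.3 in units of 1e6 estimated counts. YAP1 fell from a mean of 121 to 18.7 and 17.4 CPM and WWTR1 from 241 to 32.9 and 32.4 CPM in siYAP/TAZ#1 and siYAP/TAZ#2, with every treated library below every siCo library. Of the cell type markers, the epithelial keratins KRT7, KRT8 and KRT18 were abundant (3657, 2383 and 845 CPM in siCo), and the summed TPM of 9 epithelial markers was 2526 to 3651 in siCo, 2801 to 4108 in siYAP/TAZ#1 and 2693 to 3901 in siYAP/TAZ#2. Single epithelial markers moved in opposite directions: KRT7 fell by 0.65 and 0.85 on the log2 scale, while KRT19 rose by 0.56 and 0.83, CDH1 by 1.07 and 0.57 and EPCAM, near 2.26 CPM in siCo, by 0.52 and 0.47, and KRT18 was called lower with siYAP/TAZ#2 alone (-0.25). The alveolar genes SFTPC, SFTPB and NKX2-1 were below 0.32 CPM in every library. The summed TPM (a level per transcript length, scaled to the same total in each library) of 4 endothelial markers reached at most 0.574, and that of 5 leukocyte markers was 1.23 to 1.50 in siCo, 3.25 to 5.18 in siYAP/TAZ#1 and 4.29 to 6.56 in siYAP/TAZ#2. Nearly all of the leukocyte sum came from CD14, with PTPRC at no more than 0.719 CPM and CD3E at 0 in 11 of the 12 libraries. The sum of 6 fibroblast markers, 16.5 to 26.7 TPM in siCo, 31.9 to 45.0 in siYAP/TAZ#1 and 24.0 to 38.3 in siYAP/TAZ#2, came almost wholly from COL1A1. The part of these marker differences in the annexin results was not tested. One library stood apart, siYAP/TAZ#2 replicate 1, whose correlations with the other libraries of its group were 0.979 to 0.984.

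In siCo, annexin A2 dominated the family. Its TPM was 930 ± 192 (SD, n = 4, as for all levels here), which placed it 42nd of the 21581 genes. ANXA1 followed at 184 ± 40.0 TPM and ANXA5 at 94.7 ± 22.03. ANXA11 stood at 75.9 ± 11.5, ANXA4 at 54.4 ± 11.4 and ANXA7 at 46.1 ± 9.67 TPM. ANXA3 and ANXA6 were the lowest, at 19.1 ± 4.53 and 15.3 ± 2.81 TPM. Between neighbours in this order, the siCo libraries did not overlap for ANXA2 and ANXA1, for ANXA1 and ANXA5, or for ANXA7 and ANXA3. The ranges over libraries did overlap for ANXA5 and ANXA11, for ANXA11 and ANXA4, for ANXA4 and ANXA7, and for ANXA3 and ANXA6. Read within a library, however, ANXA5 was above ANXA11, ANXA11 above ANXA4 and ANXA4 above ANXA7 in each of the 4 siCo libraries, and ANXA3 was above ANXA6 in 3 of 4. In the treated groups 2 of these orders were exchanged: ANXA4 was above ANXA11 and ANXA6 above ANXA3 in all 8 libraries.

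The question asked of the family was which members changed when YAP and TAZ were depleted. With both combinations, ANXA3 fell, and ANXA4 and ANXA6 rose: 1 annexin lower and 2 higher in both, where 13.3% of all genes were lower in both and 12.5% higher in both. ANXA1 rose with siYAP/TAZ#2, and its smaller difference with siYAP/TAZ#1 did not pass the test. ANXA2, ANXA5, ANXA7 and ANXA11 passed the test with neither combination. The largest change among the 8, that of ANXA3 with siYAP/TAZ#1, was a loss of 38.4%, with a 95% confidence interval of the change from -45.2% to -30.7%.

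Against siCo, 1 of the 8 annexins was thus called lower with siYAP/TAZ#1, where 18.5% of all genes tested were called lower, and 2 higher, where 16.4% were called higher. For siYAP/TAZ#2 the counts were 1 lower and 3 higher, against 19.2% and 19.0% of all genes. A gene was called at a Benjamini-Hochberg adjusted p under 0.05 from edgeR's quasi-likelihood test across all 21581 genes. The median log2 change of the 8 annexins was -0.028 with siYAP/TAZ#1 and 0.044 with siYAP/TAZ#2, and that of all genes was 0.023 and 0.019. By libraries that did not overlap with siCo, 1 annexin was lower and 2 were higher with siYAP/TAZ#1 (20.7% and 18.0% of all genes), and 2 were lower and 2 higher with siYAP/TAZ#2 (17.7% and 17.0%). These shares and medians do not set the annexins apart from other genes. Both comparisons use the same 4 siCo libraries, so they are not independent of each other. In bulk RNA, fewer cells that express a gene and less RNA of it per cell cannot be told apart.

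**Figure D1:**
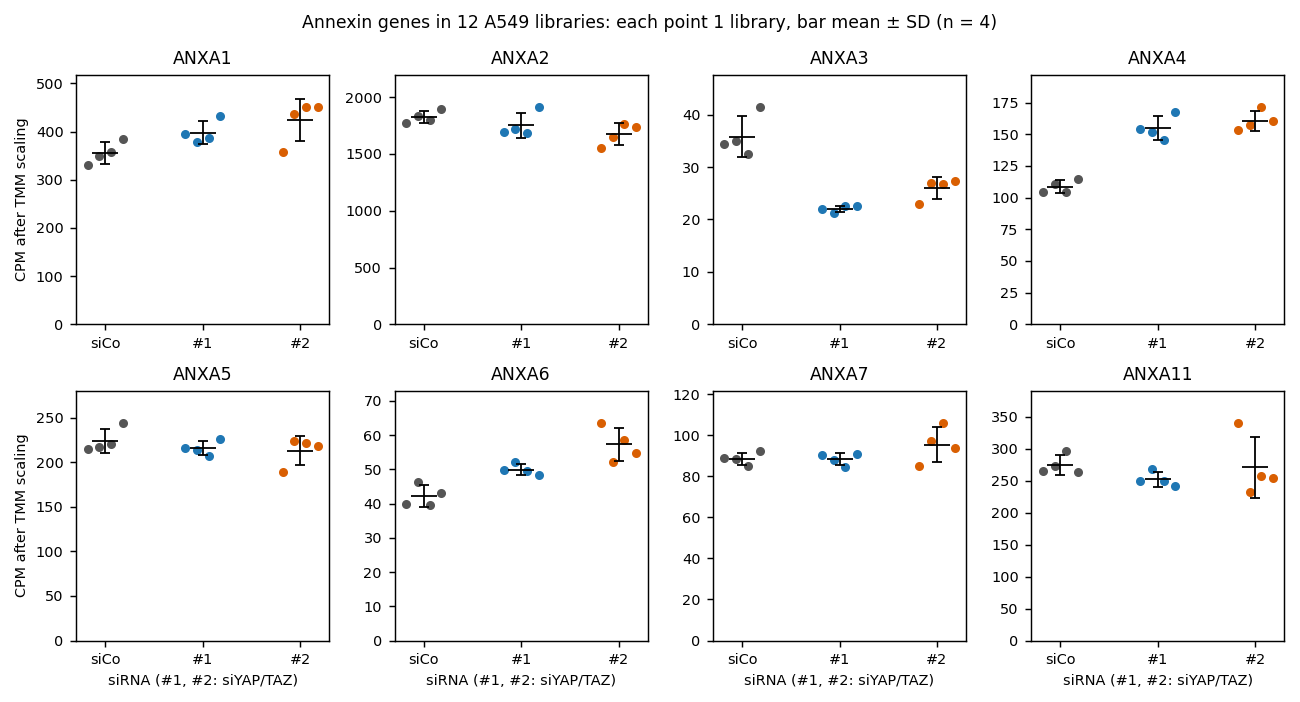
Levels of the 8 annexin genes in CPM after TMM scaling (linear axis from 0), 1 panel per gene, with 1 point per library and bars for mean ± SD of 4 libraries. The ANXA3 points of both treated groups lie below the siCo points, those of ANXA4 and ANXA6 lie above them, and ANXA11 has 1 high point at 340 CPM in siYAP/TAZ#2.

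ANXA3 (ENSG00000138772, GRCh38 chromosome 4, 78551519 to 78610451, plus strand) encodes an annexin once called placental anticoagulant protein III and studied as a marker of several tumours. In siCo replicates 1 to 4 its level was 34.3, 35.0, 32.5 and 41.4 CPM. With siYAP/TAZ#1 it was 21.9, 21.3, 22.6 and 22.5 CPM, and with siYAP/TAZ#2 it was 22.97, 27.0, 26.8 and 27.4 CPM. Every treated library was below every siCo library. The log2 change was -0.70 ± 0.080 (SE) with siYAP/TAZ#1 (edgeR adjusted p = 4.37e-06) and -0.46 ± 0.080 with siYAP/TAZ#2 (edgeR adjusted p = 0.000219). By exact permutation of the library labels, two-sided on log2 CPM, p was 0.0286 for each, the lowest value possible with 4 against 4. On the deposited TPM values, whose scale moved the median of all genes upward, the ANXA3 change with siYAP/TAZ#1 was -0.27 (limma adjusted p = 0.47) and that with siYAP/TAZ#2 turned to 0.049. The call and the second direction were thus lost on that scale. Set against the median change of all genes, ANXA3 with siYAP/TAZ#1 was at -0.72 on TMM-scaled counts and -0.53 on the TPM values. With siYAP/TAZ#2 it was at -0.48 and -0.29. Other scalings of the counts give nearly the same values by construction, since subtracting the median removes a factor per library.

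Because ANXA3 was the only one of the 8 to be called lower with both combinations, the 250 bases before its RefSeq transcription start are shown (GRCh38.p14, chr4:78551520-78551769, plus strand, 5′ to 3′). The GENCODE v29 annotation starts the gene at 78551519, so by it these bases lie within the gene and not before it. Searched on both strands for the TEAD core GGAATG and the AP-1 site TGANTCA, which do not overlap each other here, this window held neither. Capitals would mark a match.
ANXA3 promoter: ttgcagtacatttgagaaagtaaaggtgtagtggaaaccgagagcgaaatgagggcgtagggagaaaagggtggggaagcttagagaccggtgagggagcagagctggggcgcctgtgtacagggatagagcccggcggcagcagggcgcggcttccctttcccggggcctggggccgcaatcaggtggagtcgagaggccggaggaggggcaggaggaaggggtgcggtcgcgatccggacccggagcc

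Of 35116 RefSeq windows of the same length, 11.9% held GGAATG and 6.57% held TGANTCA. RefSeq gave 12 windows for the 8 annexins, of which 0 held the TEAD core and 1, that of ANXA2, held the AP-1 letters. Their GC content ran from 38.4% for ANXA1 to 78.8% for ANXA5, with a median of 58% over all windows. A match or its lack describes only the letters of these windows, since TEAD sites are often far from a start, and no binding was measured.

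ANXA4 (ENSG00000196975, chromosome 2, 69644425 to 69827100, plus strand), an annexin of the membranes of epithelial cells that orders lipids and restrains calcium-dependent chloride conductance, rose with both combinations. Its level was 104, 111, 105 and 115 CPM in siCo. It was 154, 152, 145 and 168 CPM with siYAP/TAZ#1 and 153, 157, 171 and 160 CPM with siYAP/TAZ#2. The lowest treated library, at 145 CPM, was well above the highest siCo library. The log2 change was 0.51 ± 0.060 with siYAP/TAZ#1 (edgeR adjusted p = 5.58e-06) and 0.56 ± 0.060 with siYAP/TAZ#2 (edgeR adjusted p = 1.63e-06), increases of 42.5% (95% interval 30.5% to 55.7%) and 47.9% (35.4% to 61.5%). Both calls held under every alternative run, including the TPM values and each library left out.

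RefSeq lists 2 starts for ANXA4, about which the counts per gene say nothing separately. They are shown because ANXA4 was called higher in each comparison with the smallest adjusted p of the risen members, and neither window held either motif. The first is chr2:69643558-69643807 and the second chr2:69741884-69742133, both GRCh38.p14, plus strand, with a GC content of 77.2% and 71.6%. By GENCODE v29 the second lies within the span of the gene.
ANXA4 promoter, first start: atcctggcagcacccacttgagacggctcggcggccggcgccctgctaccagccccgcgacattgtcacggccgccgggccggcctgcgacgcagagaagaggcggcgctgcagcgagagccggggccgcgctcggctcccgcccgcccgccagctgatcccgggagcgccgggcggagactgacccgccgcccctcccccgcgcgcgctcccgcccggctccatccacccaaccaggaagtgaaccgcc
ANXA4 promoter, second start: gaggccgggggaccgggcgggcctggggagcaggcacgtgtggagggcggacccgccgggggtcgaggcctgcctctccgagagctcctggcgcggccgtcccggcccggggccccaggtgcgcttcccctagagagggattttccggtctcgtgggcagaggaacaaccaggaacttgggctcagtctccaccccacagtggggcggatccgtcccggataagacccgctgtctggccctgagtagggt

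ANXA6 (ENSG00000197043, chromosome 5, 151100712 to 151157882, minus strand) encodes the largest annexin, in which the core is duplicated, and which acts in endosome traffic and cholesterol handling. Its siCo levels were 40.0, 46.3, 39.5 and 43.0 CPM. They were 49.8, 52.2, 49.4 and 48.4 CPM with siYAP/TAZ#1 and 63.5, 52.3, 58.5 and 54.9 CPM with siYAP/TAZ#2. Each treated library exceeded each siCo library, and the nearest libraries of siCo and siYAP/TAZ#1 were at 46.3 and 48.4 CPM. The log2 change was 0.24 ± 0.070 with siYAP/TAZ#1 (edgeR adjusted p = 0.0124) and 0.44 ± 0.070 with siYAP/TAZ#2 (edgeR adjusted p = 0.000102). The siYAP/TAZ#1 call was lost without siCo replicate 1 (0.21, edgeR adjusted p = 0.0511), without siCo replicate 3 (0.21, edgeR adjusted p = 0.0531) and on the TPM values (0.55, limma adjusted p = 0.12), whereas the siYAP/TAZ#2 call held in each of these.

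ANXA1 (ENSG00000135046, chromosome 9, 73151757 to 73170393, plus strand) encodes the glucocorticoid-induced annexin that restrains phospholipase A2 and, once secreted, acts on formyl peptide receptors. Its level was 331, 348, 358 and 385 CPM in siCo, 394, 378, 387 and 432 CPM with siYAP/TAZ#1 and 359, 437, 451 and 451 CPM with siYAP/TAZ#2. Most treated libraries were above siCo, but siYAP/TAZ#1 replicate 2 and siYAP/TAZ#2 replicate 1 fell below the highest siCo library, so both groups overlapped with siCo. The log2 change of 0.26 ± 0.076 with siYAP/TAZ#2 passed the test (edgeR adjusted p = 0.0135), with a two-sided exact permutation p of 0.0571. That of 0.16 ± 0.076 with siYAP/TAZ#1 did not (edgeR adjusted p = 0.11, exact permutation p = 0.0571). The siYAP/TAZ#1 value passed with library size alone (0.34, edgeR adjusted p = 0.0111), with upper quartile scaling (0.27, edgeR adjusted p = 0.00947), when only these 2 groups were fitted (0.19, edgeR adjusted p = 0.00895) and without siYAP/TAZ#2 replicate 1 (0.16, edgeR adjusted p = 0.0169). On the TPM values the siYAP/TAZ#2 change was 0.68 and missed the threshold (limma adjusted p = 0.073). Without siYAP/TAZ#2 replicate 1, the library that stood apart, the siYAP/TAZ#2 changes were 0.33 for ANXA1, -0.40 for ANXA3, 0.59 for ANXA4 and 0.39 for ANXA6 (edgeR adjusted p = 6.30e-05, 0.000178, 5.26e-08 and 3.16e-05).

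ANXA2 (ENSG00000182718, chromosome 15, 60347134 to 60402883, minus strand), whose product forms a tetramer with S100A10 that gathers plasminogen and its activators at the plasma membrane, was the most abundant member. Levels were 1773, 1837, 1796 and 1897 CPM in siCo, 1690, 1722, 1680 and 1912 CPM with siYAP/TAZ#1, and 1549, 1649, 1763 and 1734 CPM with siYAP/TAZ#2. The siYAP/TAZ#2 libraries all lay below siCo, and the siYAP/TAZ#1 libraries overlapped with it. The log2 change was -0.060 ± 0.060 with siYAP/TAZ#1 (edgeR adjusted p = 0.49) and -0.13 ± 0.060 with siYAP/TAZ#2 (edgeR adjusted p = 0.12), and its sign turned under other scalings. The 95% intervals ran from -12.2% to 4.77% and from -16.1% to 0.168%, so a loss of a few percent could not be told from none. Counts of ANXA2 could be touched by its processed pseudogenes, since 8.19% of its 31-base words also occur in other genes, mainly ANXA2P2. ANXA2P2 itself was near 0.46 CPM in siCo, far below ANXA2, and ANXA2P1 and ANXA2P3 did not pass the filter on low counts.

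Only the ANXA2 window among the 12 held a TGANTCA match, 121 to 127 bases before the start, and it is shown for that reason (GRCh38.p14, chr15:60397987-60398236, minus strand, the match in capitals). By GENCODE v29 this window also lies within the span of its gene.
ANXA2 promoter: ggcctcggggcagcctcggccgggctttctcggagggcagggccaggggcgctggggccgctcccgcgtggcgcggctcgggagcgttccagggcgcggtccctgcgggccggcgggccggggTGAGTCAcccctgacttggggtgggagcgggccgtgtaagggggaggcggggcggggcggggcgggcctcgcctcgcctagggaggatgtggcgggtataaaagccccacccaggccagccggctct

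ANXA5, ANXA7 and ANXA11 did not pass the test after TMM scaling with all libraries. ANXA5, the phosphatidylserine binder used to stain apoptotic cells, was at 224 ± 13.3 CPM in siCo, 216 ± 7.9 with siYAP/TAZ#1 and 213 ± 16.1 with siYAP/TAZ#2 (log2 changes -0.054 and -0.072, edgeR adjusted p = 0.57 and 0.42). ANXA7, whose tail binds sorcin and ALG-2, was at 88.5 ± 2.91, 88.4 ± 3.0 and 95.4 ± 8.62 CPM (-0.0033 and 0.11, edgeR adjusted p = 0.97 and 0.21). ANXA11, which binds ALG-2 and tethers RNA granules to lysosomes, was at 275 ± 15.6, 252 ± 11.5 and 271 ± 47.2 CPM (-0.12 and -0.021, edgeR adjusted p = 0.34 and 0.89). The wide spread of ANXA11 with siYAP/TAZ#2 came from replicate 1 at 340 CPM, beside 233, 257 and 254 CPM in the others. In TPM the same library was the lowest of its group for ANXA11, at 74.6 beside 87.1, 96.0 and 122. Its counts per TPM over the library median, a measure of estimated transcript length, were 1.40 beside 1.16, 1.12 and 1.16. The part of that length in the high CPM was not tested. Without that library ANXA11 was called lower with both combinations (-0.13 and -0.14, edgeR adjusted p = 0.0456 and 0.0350) and ANXA7 higher with siYAP/TAZ#2 (0.16, edgeR adjusted p = 0.0133). Leaving out the same library therefore gave 2 lower and 3 higher annexins with siYAP/TAZ#1, where 22.3% of all genes were then called lower and 19.1% higher, and 2 lower and 4 higher with siYAP/TAZ#2, where 22.1% were lower and 20.8% higher. ANXA7 with siYAP/TAZ#2 was also called higher with library size alone (0.30, edgeR adjusted p = 0.00837) and with upper quartile scaling (0.21, edgeR adjusted p = 0.0121).

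**Figure D2:**
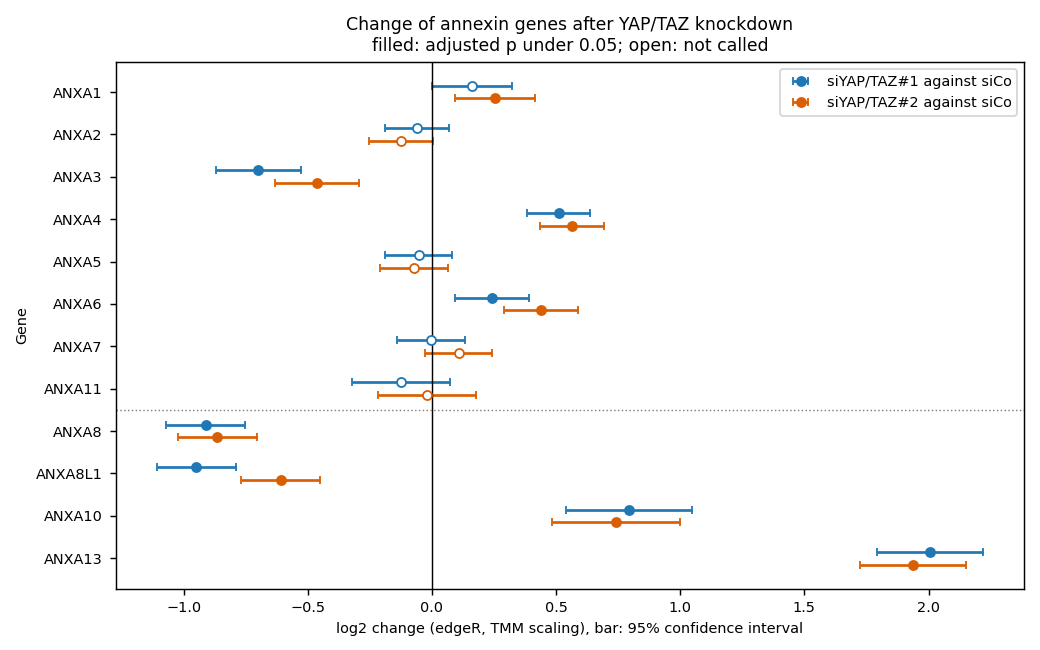
Log2 change of annexin genes against siCo from edgeR with TMM scaling, with 95% confidence intervals as bars, filled points for adjusted p under 0.05 and open points otherwise. Above the dotted line, ANXA3 is lower and ANXA4 and ANXA6 higher with both combinations; below it, ANXA8 and ANXA8L1 are lower and ANXA10 and ANXA13 higher.

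The combinations were next set against each other, which also tests whether their effects differ. None of the 8 annexins was called with edgeR, where 6.92% of all genes were lower and 8.20% higher in siYAP/TAZ#2, and 2 of the 8 had an unadjusted p under 0.05, as did 25.6% of all genes. These were ANXA3, higher in siYAP/TAZ#2 by 0.24 ± 0.080 (edgeR adjusted p = 0.0596), and ANXA6, higher by 0.20 ± 0.070 (edgeR adjusted p = 0.0709). For both the libraries of the 2 combinations did not overlap, as for 9.31% of all genes in that direction and 8.91% in the other. DESeq2 called 1 annexin, ANXA3 (0.23, DESeq2 adjusted p = 0.0419), where it called 10.5% of all genes lower and 11.8% higher. Without siYAP/TAZ#2 replicate 1, edgeR called ANXA1, ANXA3 and ANXA7 higher in siYAP/TAZ#2 (0.17, 0.30 and 0.17, edgeR adjusted p = 0.0270, 0.00586 and 0.0188). In that fit 10.3% of all genes were called lower and 12.8% higher. For ANXA4 the interval of the difference ran from -4.96% to 13.3%, around 3.76%.

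A view that does not depend on how libraries are scaled is the share of each gene in the summed TPM of the 8 annexins. ANXA2 made up 65.5 ± 0.531% in siCo, 62.7 ± 0.493% with siYAP/TAZ#1 and 60.6 ± 0.524% with siYAP/TAZ#2, and the 3 groups did not overlap. ANXA1 took 12.9 ± 0.393%, 14.6 ± 0.320% and 15.7 ± 0.987%, with all treated libraries above siCo. ANXA4 took 3.83 ± 0.031%, 5.87 ± 0.164% and 6.01 ± 0.597%, also without overlap with siCo. ANXA3 took 1.34 ± 0.059%, 0.861 ± 0.058% and 1.05 ± 0.102%, with all treated libraries below siCo. ANXA6, called higher with both combinations on counts, took 1.09 ± 0.165%, 1.27 ± 0.124% and 1.51 ± 0.370%, and both treated groups overlapped with siCo. Within the family the weight thus moved from ANXA2 and ANXA3 to ANXA1 and ANXA4. TPM also rest on estimated transcript length, read here as counts per TPM over the library median. For ANXA6 it ran from 0.681 to 1.05 between libraries. For ANXA4 its mean differed by -6.13% between siYAP/TAZ#1 and siCo (exact permutation p = 0.0286, or 0.57 after Benjamini-Hochberg adjustment over 20 comparisons). With siYAP/TAZ#2 the ANXA4 difference was -2.65% (exact permutation p = 0.46). Shares sum to a whole, so a rise of 1 gene lowers the others, and they show unequal change, not which gene was unchanged.

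**Figure D3:**
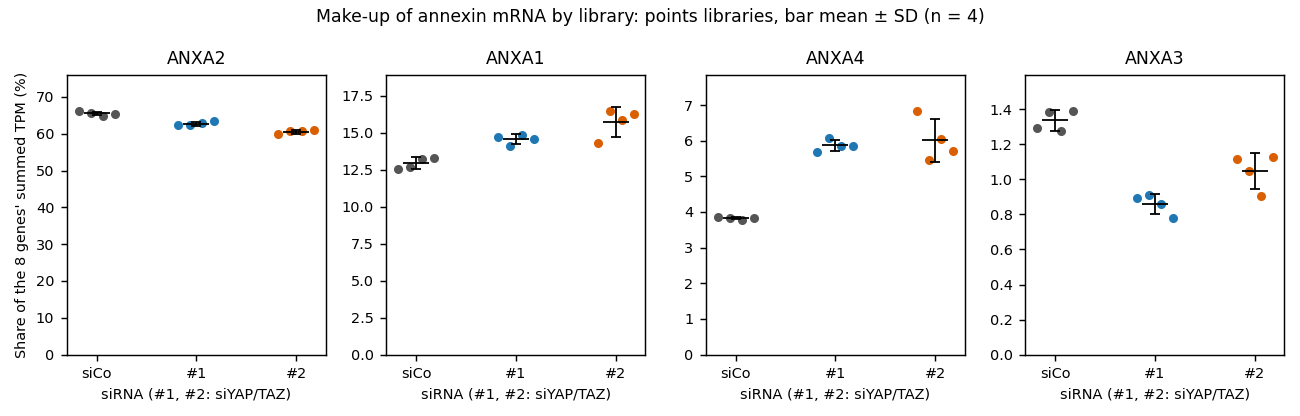
Share of 4 annexins in the summed TPM of the 8 genes, in percent on linear axes from 0, with points for libraries and bars for mean ± SD of 4. The ANXA2 share falls from 65.5% to 62.7% and 60.6%, and the ANXA4 share stands at 3.83% in siCo against 5.87% and 6.01%.

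The other annexins of the genome had larger changes at lower levels. ANXA13, the intestinal and kidney annexin, stood at 2.43, 2.26, 2.55 and 2.84 CPM in siCo, and at 8.63 to 10.6 CPM in the 8 treated libraries. It rose by 2.01 ± 0.10 and 1.94 ± 0.10 on the log2 scale (edgeR adjusted p = 5.13e-10 and 6.18e-10), about 4-fold, the largest annexin change in each comparison. ANXA10, a gastric annexin, rose from 4.52 ± 0.590 to 7.86 ± 0.582 and 7.57 ± 1.04 CPM (0.79 and 0.74, edgeR adjusted p = 7.32e-05 and 0.000127). ANXA9 was below 1.11 CPM in every library and was called in neither comparison, although it was called in both without siCo replicate 2 (1.38 and 1.58, edgeR adjusted p = 0.0151 and 0.00612).

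ANXA8 and ANXA8L1 on chromosome 10 share much of their sequence, so the division of reads between them is uncertain. Of the 31-base words of ANXA8, 50% occur in ANXA8L1, and of those of ANXA8L1, 86.5% occur in ANXA8. Counting every other gene, among them AC245041.2 and AC244230.1, 79.2% and 88.4% of their words occur elsewhere. ANXA8 went from 24.7 ± 2.02 CPM to 13.1 ± 0.761 and 13.5 ± 0.588 (-0.91 and -0.86, edgeR adjusted p = 1.21e-07 and 1.79e-07). ANXA8L1 went from 28.0 ± 2.37 to 14.5 ± 0.607 and 18.4 ± 1.14 CPM (-0.95 and -0.61, edgeR adjusted p = 7.57e-08 and 7.00e-06). Both fell, and their sum, which does not depend on the division between them, fell from 52.7 ± 1.33 CPM to 27.7 ± 0.876 and 31.9 ± 1.23, with no overlap with siCo (two-sided exact permutation p = 0.0286 for each). Reads divided with other genes can still affect this sum. ANXA8L1 was higher in siYAP/TAZ#2 than in siYAP/TAZ#1 by 0.34 ± 0.076 (edgeR adjusted p = 0.00483). On the TPM values neither gene passed the test.

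The genes whose pattern over the 12 libraries was most like that of an annexin were sought among 11412 genes with at least 5 CPM, by the root mean square difference of centred log2 CPM. Nearest to ANXA3 were CIP2A (0.063), RIOK1 (0.073) and MOB1A, an adaptor of the Hippo kinases (0.076), where the median gene was at 0.320. Nearest to ANXA4 were FBXW10 (0.047), ARRB2 (0.052) and MAPRE2 (0.057), against a median of 0.338. Nearest to ANXA6 were OPTN (0.061), HCFC1R1 (0.066) and ACTMAP (0.071), against 0.285. The nearest genes lie below the median by the way they were chosen. A gene at a constant level would lie at the SD of the annexin itself, which was 0.303 for ANXA3, 0.262 for ANXA4 and 0.199 for ANXA6. The points share libraries, so this is a description of likeness in 12 libraries only.

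Partners of the annexins were read from lists of known genes. Of 10 S100 genes tested, 4 were lower and 1 higher with each combination, with a list median of -0.12 in both. Of all genes tested, 18.5% were lower and 16.4% higher with siYAP/TAZ#1, and 19.2% and 19.0% with siYAP/TAZ#2. S100A10, the partner of annexin A2, was at 235, 243, 237 and 247 CPM in siCo, 205, 200, 205 and 215 CPM with siYAP/TAZ#1 and 186, 190, 215 and 198 CPM with siYAP/TAZ#2. Each treated library was below each siCo library, and the gene fell by 0.22 and 0.28 on the log2 scale (edgeR adjusted p = 0.00444 and 0.000586). However, it was not called with library size alone, nor for siYAP/TAZ#1 with upper quartile scaling (-0.12, edgeR adjusted p = 0.082). It turned to 0.12 and 0.14 on the TPM values. The other lower S100 genes were S100A2, S100A3 and S100A16, and S100P was higher. The S100A3 call with siYAP/TAZ#2 only just passed (-0.21, edgeR adjusted p = 0.0494, two-sided exact permutation p = 0.0857, libraries overlapping siCo). It was lost in 9 of the 12 fits that left out 1 library (namely siCo replicates 1, 2 and 4, siYAP/TAZ#1 replicates 1 to 4 and siYAP/TAZ#2 replicates 2 and 3), and also with library size alone, upper quartile scaling, no filter on low counts and only these 2 groups fitted. With siYAP/TAZ#2, S100A2 was not called with library size alone or with no filter on low counts, and S100A16 not with library size alone or upper quartile scaling. On the TPM values S100A2, S100A3 and S100A16 were not called lower either, and S100A3 and S100A16 turned to 0.21 and 0.22 with siYAP/TAZ#2. None of the 3 formyl peptide receptor genes, receptors of secreted annexin A1, passed the filter on low counts.

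Membrane repair and the ALG-2 or sorcin partners of annexins A7 and A11 formed a list of 14 genes. With siYAP/TAZ#1, 6 were lower and 0 higher (18.5% and 16.4% of all genes). With siYAP/TAZ#2, 3 were lower and 1 higher (19.2% and 19.0% of all genes). The list medians were -0.17 and -0.050. MYOF, a ferlin of membrane repair, fell from 869 ± 23.5 to 466 ± 13.3 and 567 ± 32.6 CPM. AHNAK, a giant scaffold bound by the annexin A2 and S100A10 complex, fell from 1848 ± 115 to 1036 ± 78.4 and 1193 ± 58.8 CPM, and EHD1, a membrane remodelling ATPase, from 374 ± 24.5 to 208 ± 10.6 and 219 ± 33.6 CPM. PDCD6, which encodes ALG-2, fell from 81.5 ± 1.05 to 34.2 ± 2.42 CPM with siYAP/TAZ#1 (-1.25, edgeR adjusted p = 1.25e-09), while with siYAP/TAZ#2 it was at 73.0 ± 6.35 CPM (-0.16, edgeR adjusted p = 0.075). Without siYAP/TAZ#2 replicate 1, PDCD6 was called lower with siYAP/TAZ#2 as well (-0.21, edgeR adjusted p = 0.00586). The difference between the combinations was 1.10 ± 0.069 (edgeR adjusted p = 1.02e-08).

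Genes that expose or bind phosphatidylserine, the lipid that annexins bind, were mixed. With siYAP/TAZ#1, 4 of 11 were lower and 4 higher (18.5% and 16.4% of all genes). With siYAP/TAZ#2, 2 were lower and 5 higher (19.2% and 19.0% of all genes). The list medians were 0.16 and 0.35. The scramblase genes XKR8 and PLSCR4 rose from 8.31 ± 0.366 to 11.2 ± 0.514 and 14.4 ± 1.25 CPM and from 5.57 ± 0.464 to 11.03 ± 1.50 and 11.3 ± 2.35 CPM. TMEM30A, the shared subunit of flippases, fell from 78.1 ± 2.89 to 27.2 ± 1.86 CPM with siYAP/TAZ#1 (-1.52, edgeR adjusted p = 1.27e-10) and was at 77.2 ± 5.37 CPM with siYAP/TAZ#2, a difference between combinations of 1.50 ± 0.067 (edgeR adjusted p = 1.98e-10).

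In the list of phospholipase A2 and prostaglandin synthesis, the reaction that annexin A1 is known to restrain, 4 of 8 genes were higher and 1 lower with siYAP/TAZ#1, and 5 higher and 0 lower with siYAP/TAZ#2, with list medians of 0.41 and 0.42. PLA2G4A, the cytosolic phospholipase A2, rose from 20.8 ± 1.03 to 42.9 ± 2.54 and 42.8 ± 6.97 CPM. PTGS2, the inducible cyclooxygenase, rose from 95.2 ± 7.67 to 192 ± 13.3 and 175 ± 25.0 CPM. In that of plasminogen activation, which annexin A2 serves, 3 of 6 genes were lower and 1 higher with siYAP/TAZ#1, and 3 lower and 3 higher with siYAP/TAZ#2, with medians of -0.39 and -0.11. Urokinase (PLAU) fell from 237 ± 5.63 to 89.4 ± 5.11 and 118 ± 1.37 CPM, and its receptor PLAUR from 63.8 ± 1.55 to 37.1 ± 0.745 and 42.3 ± 2.86 CPM. On the TPM values MYOF, AHNAK, EHD1 and PLAUR kept their direction with both combinations but passed with neither, and the same held for PLAU with siYAP/TAZ#2 and for XKR8 with siYAP/TAZ#1. PLSCR4, PLA2G4A and PTGS2 passed with both on that scale. All these partner counts stand beside the same background of 18.5% lower and 16.4% higher with siYAP/TAZ#1 and 19.2% and 19.0% with siYAP/TAZ#2, and the lists were chosen with earlier results known.

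**Figure D4:**
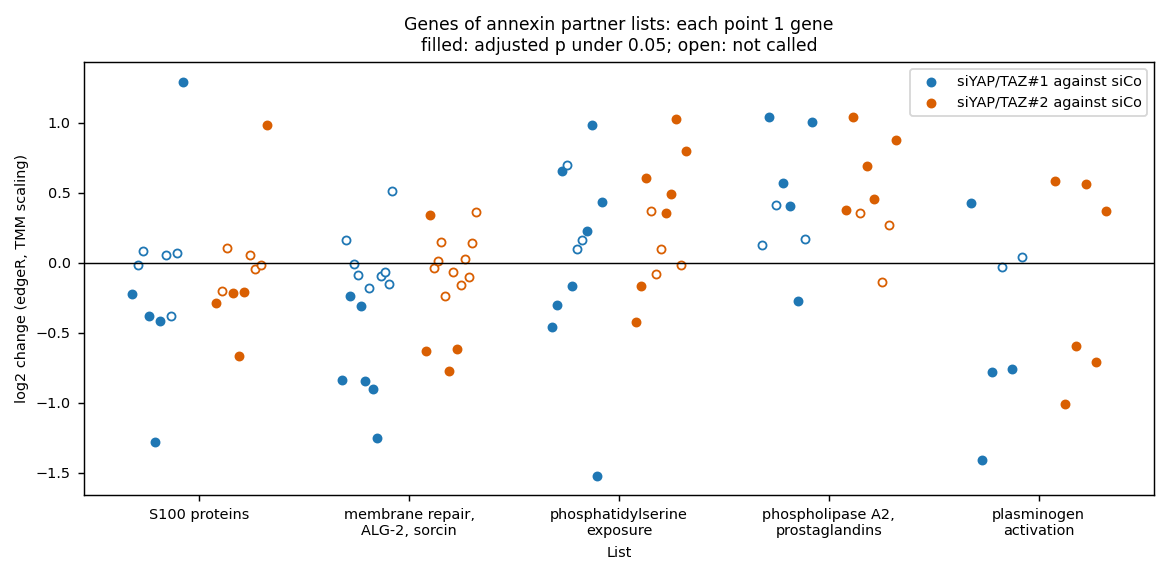
Log2 change against siCo (edgeR, TMM scaling) of each tested gene in 5 lists of annexin partners, with 1 point per gene and combination, filled for adjusted p under 0.05. The 4 phospholipase A2 and prostaglandin genes higher with siYAP/TAZ#1 stand above 0, and the lowest point is TMEM30A with siYAP/TAZ#1 at -1.52.

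How the libraries are brought to a common scale mattered for the smaller annexin changes. The median change of all genes was 0.023 and 0.019 after TMM scaling and 0.12 for both combinations with upper quartile scaling. It was 0.20 and 0.21 when only library size was used, and 0.26 and 0.33 for log2(TPM + 1). Higher genes made up 46.9% and 49.7% of all calls after TMM scaling, 75.5% and 76.2% with library size alone, 63.8% and 65.1% with upper quartile scaling and 90.3% and 93.8% on the TPM values. ANXA2, ANXA5, ANXA7 and ANXA11, none of them called after TMM scaling, changed sign with 1 or both combinations under some of these. Relative to the median of all genes under the same scaling, ANXA4 was higher by 0.49 to 0.69 and 0.54 to 0.70. ANXA6 was higher by 0.22 to 0.29 and 0.42 to 0.48, and ANXA1 by 0.14 to 0.26 and 0.24 to 0.35. Subtracting the median removes a factor per library, so the scalings of counts agree closely here by construction. Only the TPM values, at the upper end of each range, are a separate check.

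**Figure D5:**
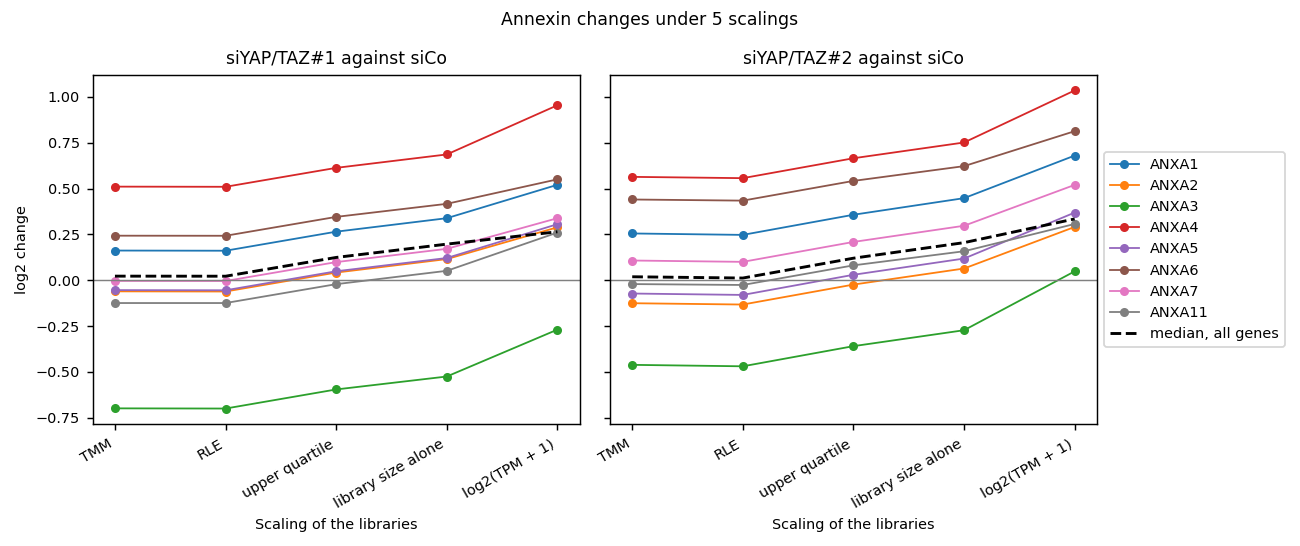
Log2 change of the 8 annexins against siCo under 5 ways of scaling (lines only join the points of a gene), with the median of all genes dashed. The 8 annexins shift upward together from TMM to log2(TPM + 1), while ANXA4 stays the highest and ANXA3 the lowest of the 8.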

How the data were processed

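RNA of A549 cells was sequenced in 12 libraries (4 per group, groups and replicate numbers from the sample titles). For each library the authors deposited a table of estimated counts per Ensembl gene, without further scaling, and a table of TPM values. Per the submitters' processing notes, kallisto 0.4.6, Trim Galore 0.6.4 and the build GRCh38.p13 were used, without a stated role for each. Neither the summing of transcripts to genes nor strandedness is given in the sources used here, so reads of overlapping antisense genes may be mixed. Symbols came from a table of gene names, which matched 60357 of 60617 identifiers, and coordinates from GENCODE v29 on GRCh38, 1-based. Promoter sequences are RefSeq's on GRCh38.p14.

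After rounding of the estimated counts and filterByExpr at its defaults, edgeR 4.0.16 (R 4.3.3) was run with TMM factors and a single term for group over the 12 libraries. P-values are from its quasi-likelihood F test, adjusted by Benjamini-Hochberg over 21581 genes. CPM are after TMM scaling. DESeq2 1.42.0 and limma 3.58.1 on log2(TPM + 1), for genes with a mean TPM of at least 1 in a group, served as alternatives. The steps were tested on simulated data with known changes.

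The genes named are the 8 members, YAP1 and WWTR1, the other annexins and annexin A2 pseudogenes, the 4 genes of each partner list with the lowest adjusted p when both combinations were averaged, and for each member called the same way with both combinations the 3 genes nearest in pattern. Some genes that this rule picks are not reported here. Further list genes named only as called were added after their values were seen, and so were the cell type markers singled out. The members and lists were chosen with earlier results of these data known. No pair of libraries agreed within sampling noise. Nothing shows separate cultures beyond the word biological replicates, so p-values measure the spread between these libraries.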

Additional observations from a re-analysis of the deposited data

Results flagged for a closer look

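In the 24 groups of 4 libraries formed by the 8 annexins, 3 libraries were far from the others of their group by Dixon's criterion, which by chance flags about 1 in 20 groups. All 3 values came from siYAP/TAZ#2 replicate 1. ANXA1 was at 359 CPM there, beside 437 to 451 CPM in the other libraries of the group. ANXA3 was at 22.97 CPM, beside 26.8 to 27.4 CPM. ANXA5 was at 189 CPM, beside 218 to 224 CPM.

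Of the genes named from the lists, 8 responded differently to the combinations, by the edgeR test of siYAP/TAZ#2 against siYAP/TAZ#1. Of all genes tested, 6.92% were lower and 8.20% higher in that test. Most of the named genes were picked by their adjusted p against siCo in these same data, so their count cannot be read against that share. The log2 difference was 0.34 for ANXA8L1, 0.29 for MYOF, 0.20 for AHNAK, 1.10 for PDCD6, 1.50 for TMEM30A, 0.36 for XKR8, 0.40 for PLAU and 0.19 for PLAUR, each higher in siYAP/TAZ#2. The calls of AHNAK (edgeR adjusted p = 0.0477) and PLAUR (edgeR adjusted p = 0.0393) were lost in 8 and 6 of the 12 fits that left out 1 library, with adjusted p in those fits of 0.0502 to 0.147 and 0.0603 to 0.122. For AHNAK these left out siCo replicates 2 and 3, siYAP/TAZ#1 replicates 1 to 3 and siYAP/TAZ#2 replicates 2 to 4, and for PLAUR siYAP/TAZ#1 replicates 1 to 4 and siYAP/TAZ#2 replicates 3 and 4. On log2(TPM + 1), PDCD6 and TMEM30A passed and the other 6 did not.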

How the results depend on the processing

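Over the alternatives, 436 of 504 values of the 8 annexins kept their direction and side of the threshold, 8 lost a call, 17 gained one and 43 changed sign. Upper quartile scaling was chosen after seeing the data. The cause of the changes below was not tested. Depth limits ANXA9 and ANXA2P2, which were near or below 1 CPM.

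Sign changes against siCo, with the value for siYAP/TAZ#1 and then siYAP/TAZ#2 where both turned, were as follows. With library size alone ANXA2 was at 0.12 and 0.064, ANXA5 at 0.12 and 0.12, ANXA11 at 0.052 and 0.16, ANXA7 at 0.17 with siYAP/TAZ#1, and ANXA2P2 at 0.13, PDCD6 at 0.024 and TMEM30A at 0.17 with siYAP/TAZ#2. On log2(TPM + 1) ANXA2 was at 0.29 and 0.29, ANXA5 at 0.31 and 0.37, ANXA11 at 0.26 and 0.31, S100A10 at 0.12 and 0.14, ANXA7 at 0.34 with siYAP/TAZ#1, and ANXA3 at 0.049, PDCD6 at 0.26, S100A16 at 0.22, S100A3 at 0.21 and TMEM30A at 0.42 with siYAP/TAZ#2. With a pseudocount of 0.1 these were, in the same order, 0.29 and 0.29, 0.31 and 0.37, 0.26 and 0.31, 0.12 and 0.14, 0.34, and 0.050, 0.26, 0.22, 0.22 and 0.44. With upper quartile scaling ANXA5 was at 0.049 and 0.030, ANXA2 at 0.042 and ANXA7 at 0.099 with siYAP/TAZ#1, and ANXA11 at 0.081, ANXA2P2 at 0.044 and TMEM30A at 0.085 with siYAP/TAZ#2. ANXA7 with siYAP/TAZ#1 was at 0.025 with no filter on low counts and at 0.020 with only the 2 groups compared, and TMEM30A with siYAP/TAZ#2 was at 5.174e-05 with no filter. Between the combinations, log2(TPM + 1) put ANXA2 at 0.00187, ANXA5 at 0.063, ANXA10 at 0.026 and ANXA13 at 0.00461, and the pseudocount of 0.1 put them at 0.00186, 0.063, 0.025 and 0.00555.

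On both TPM scales the annexins called with siYAP/TAZ#1 were 0 lower and 1 higher, and 0 were lower with siYAP/TAZ#2. Of all genes on log2(TPM + 1), 0.842% were lower and 7.82% higher with siYAP/TAZ#1, and 1.09% were lower with siYAP/TAZ#2. With the pseudocount of 0.1 these shares were 0.885%, 8.95% and 1.11%. Between the combinations, 1 annexin was higher with library size alone (ANXA6, 7.62% of all genes higher), with DESeq2 (ANXA3, 11.8%) and with the replicate block (ANXA3, 8.1%). The replicate numbers did not pair the libraries throughout, with same-numbered correlations of deviations from -0.153 to 0.208 and 5 of 12 libraries closest to their own number. Of the same-numbered pairs 4 of 12 were above 0.1, and of the others 4 of 36. The pairs of replicate 4 libraries were all positive, at 0.193, 0.148 and 0.208, and a shared replicate 4 effect was not tested on its own. The block gave ANXA3 a difference between combinations of 0.23 (edgeR adjusted p = 0.0488) and moved no other annexin count. With the block S100A3 with siYAP/TAZ#2 was at -0.21 (edgeR adjusted p = 0.0545), PDCD6 with siYAP/TAZ#2 at -0.16 (edgeR adjusted p = 0.0457) and PLAUR between the combinations at 0.19 (edgeR adjusted p = 0.0649).

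Leaving out each library in turn gave 1 to 2 annexins lower and 1 to 3 higher with siYAP/TAZ#1, 1 to 2 lower with siYAP/TAZ#2, and 0 to 3 higher between the combinations, the upper ends each without siYAP/TAZ#2 replicate 1. The shares of all genes in these fits were, in the same order, 15.7% to 22.3%, 14.1% to 19.1%, 16.6% to 22.1% and 5.83% to 12.8%, also highest without that library. Against siCo the changes that turned ran from -0.029 to 0.018 for ANXA7 with siYAP/TAZ#1, and with siYAP/TAZ#2 from -0.14 to 0.046 for ANXA11, from -0.18 to 0.050 for ANXA2P2 and from -0.057 to 0.029 for TMEM30A. Between the combinations they ran from -0.13 to 0.040 for ANXA10, -0.017 to 0.17 for ANXA11, -0.041 to 0.042 for ANXA5 and -0.062 to 0.026 for WWTR1.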
